A study of Mus musculus with 12 samples.

Results

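A set of 9 genes listed for the making, clearing or sensing of retinoic acid was followed in the kidney cortex of mice given ethanol, lipopolysaccharide (LPS) or both. They were the retinol carrier gene Rbp4, the aldehyde dehydrogenase genes Aldh1a1, Aldh1a2, Aldh1a3 and Aldh1a7, the retinoic acid hydroxylase gene Cyp26b1, and the receptor genes Rara, Rarb and Rxra. These 9 of the 47719 genes in the table were chosen by name, with the measured differences between these same libraries already known, so their values below are a description and no p-value is given for them. Of the 9 genes, 7 passed the expression filter (at least 1 FPKM in at least 3 of the 12 libraries), as did 14109 genes in all. Rbp4 and Aldh1a3 did not pass it.

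RNA was sequenced from cortex sections of C57BL6/J males that the labels give as 8 weeks old, with 3 libraries in each of 4 groups. PF mice received a liquid pair-fed control diet with maltose-dextrin for 6 weeks and saline 4 hours before the kidneys were taken. PF4hLPS mice received the same diet and 10 mg/kg LPS from E. coli, a bacterial cell wall component that activates Toll-like receptor signalling, intraperitoneally at that time. EtOH mice received the Lieber-DeCarli diet, with ethanol raised in steps to 6%, and saline, and EtOH4hLPS mice received that diet and the same LPS dose. The labels name no engineered allele in any group, and every group had a liquid diet and an injection. The labels number the replicates without saying that each is a separate mouse, so the errors measure the spread between these libraries.

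Retinoic acid is made from vitamin A in a pair of oxidation steps. Alcohol and retinol dehydrogenases turn retinol into retinaldehyde, and retinaldehyde dehydrogenases of the Aldh1a family turn retinaldehyde into retinoic acid. Cyp26 enzymes hydroxylate retinoic acid and so end its action, while the RAR receptors, bound to DNA as partners of RXR, switch genes on when retinoic acid binds. Ethanol is oxidised by enzymes of the same families. In the kidney, the proximal tubule takes filtered retinol and its carrier back up through megalin.

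Values are FPKM, fragments counted over a transcript and scaled by its length and for library depth, so levels can be compared between genes. Total FPKM ran from 1005219 in EtOH library 1 to 1935824 in PF4hLPS library 2. The median ratio of a library to the geometric mean of all 12 lay between 0.9449 and 1.045, over protein-coding genes above 1 FPKM in every library. Differences are given on the log2(FPKM + 1) scale with their standard error (SE) from a limma fit of all 12 libraries, which shrinks the change of weakly expressed genes. A gene is called where its Benjamini-Hochberg adjusted p over the 14109 genes tested is under 0.05. Libraries held 12354 to 13092 genes at 1 FPKM or more. Fragment totals are not used here, and the depth, judged by the spacing of low values, ran from 0.500 to 1.21 relative to PF library 1. It was 0.500 to 0.779 in the 6 LPS libraries and 0.737 to 1.21 in the 6 saline libraries. PF4hLPS library 2 was the shallowest, and it stood lowest for genes of high GC content, with a slope of -0.412 log2 units per 10% GC relative to its group. EtOH4hLPS library 1 and PF library 1 followed at -0.308 and -0.248, against -0.077 to 0.214 in the other 9. The proximal tubule markers, 8 of 8 at a mean of at least 1 FPKM, summed to 41600 to 107000 FPKM, and those of adipocytes, adrenal cortex and mesothelium to at most 7.75. The highest of these small sums came from single libraries. PF library 2 had Adipoq at 4.62 and Upk1b at 2.63 FPKM, and PF4hLPS library 1 had Krt19 at 4.58 and Upk1b at 2.74 FPKM. Several of the 9 genes lie at similar levels, and the part of such tissue in their values was not tested.

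Across all libraries the 9 genes spanned a wide range of levels. Rxra had the highest mean at 9.55 FPKM, followed by Aldh1a7 at 8.74 and Aldh1a1 at 4.87. Rara, Cyp26b1, Rarb and Aldh1a2 lay close together, at means of 2.42, 2.30, 2.29 and 1.88 FPKM. Aldh1a3 had a mean of 0.752 FPKM and Rbp4 of 0.0988. The plot of levels by group shows how differently these means were distributed over the 4 groups.

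**Figure D1:**
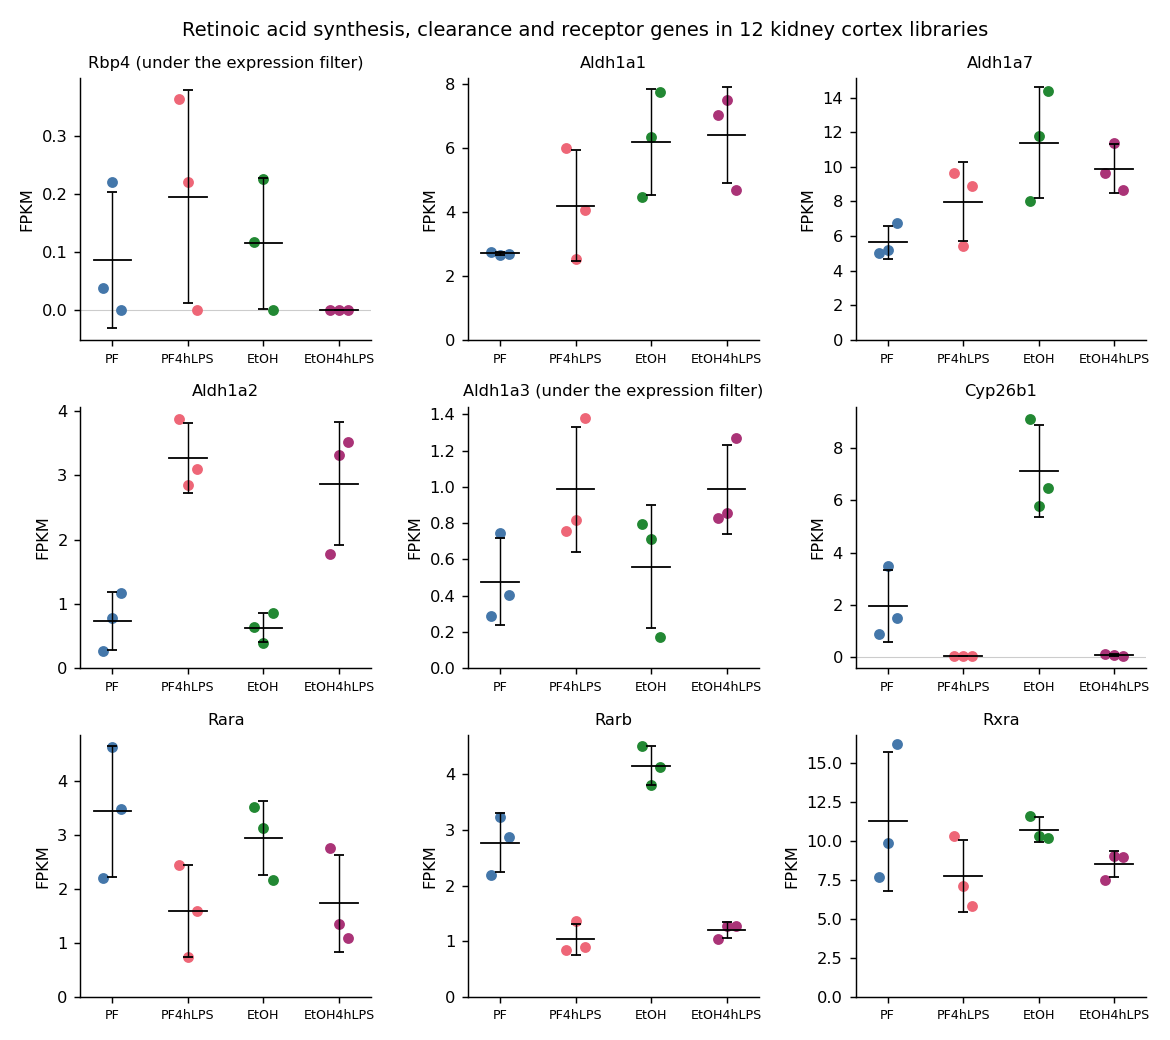
Level of each of the 9 genes in FPKM (vertical axes, separate scales) in the 4 groups. Points are the 3 libraries of a group, long bars the mean and whiskers the SD. Cyp26b1 was between 0.872 and 9.13 FPKM in the 6 saline libraries and at most 0.101 in the 6 LPS libraries.

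Cyp26b1, the clearance gene of the set, encodes a cytochrome P450 that hydroxylates all-trans retinoic acid (ENSMUSG00000063415, chromosome 6, 84571414 to 84593908, minus strand, GRCm38). In the PF libraries it was at 0.872, 3.50 and 1.48 FPKM, and in the EtOH libraries at 9.13, 5.77 and 6.47 FPKM. In the PF4hLPS libraries it was at 0.0402, 0.0203 and 0.0505 FPKM, and in the EtOH4hLPS libraries at 0.101, 0.0815 and 0.0495 FPKM. All 3 EtOH libraries were above all 3 PF libraries, every saline library was above every LPS library, and the 2 LPS groups overlapped.

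The group means of Cyp26b1 were thus ordered EtOH at 7.12 ± 1.78 FPKM (SD, n = 3), PF at 1.95 ± 1.37, EtOH4hLPS at 0.0775 ± 0.0262 and PF4hLPS at 0.037 ± 0.0154. After LPS the difference was -1.41 ± 0.27 (SE) in pair-fed mice and -2.89 ± 0.27 in ethanol-fed mice. With a pseudocount of 0.1 instead of 1 these differences were -3.69 and -5.33. The LPS values rest on little material. By the step estimate, 1.2 to 4.3 fragments stood behind Cyp26b1 in the PF4hLPS libraries and 4.7 to 8.4 in the EtOH4hLPS libraries, against 105.8 to 1049.2 in the saline libraries. The difference between diets under LPS, 0.05 ± 0.27, therefore lies where a few fragments decide the value.

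The other Cyp26 hydroxylases, named here as the closest relatives of Cyp26b1 after their values were seen, were scarcely present. Cyp26a1, known as a gene that retinoic acid itself induces, was at 0.0502, 0.0509 and 0.105 FPKM in PF and at 0.189, 0.105 and 0.267 FPKM in EtOH. Under LPS it was at no more than 0.036 FPKM in any of the 6 libraries, and Cyp26c1 was at 0.0259 FPKM or less in all 12. Neither passed the expression filter, so neither was tested. Cyp2s1, another P450 that can oxidise retinoic acid, was at 1.07, 1.89 and 1.90 FPKM in PF and at 0.751, 0.474 and 0.699 FPKM in PF4hLPS, and it was called lower (difference -0.66 ± 0.18; limma adjusted p = 0.0246). In ethanol-fed mice its difference after LPS was -0.56 ± 0.18 (adjusted p = 0.055), so it was not called there. Leaving out PF library 2, PF library 3 or PF4hLPS library 2 ended the call of Cyp2s1, with the adjusted p between 0.011 and 0.108 over the 6 libraries left out in turn. Aldh8a1, which oxidises 9-cis retinaldehyde, was at 125 to 137 FPKM in PF and 98.3 to 102 FPKM in PF4hLPS and was not called (difference -0.41 ± 0.16; adjusted p = 0.0922). In the ethanol groups Aldh8a1 was at 99.3 to 128 FPKM in EtOH and 75.5 to 89.6 FPKM in EtOH4hLPS, again without a call. Its LPS libraries were thus below the saline libraries within each diet.

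Of the 4 Aldh1a genes, Aldh1a2 was the gene whose level separated all LPS from all saline libraries. It encodes RALDH2, the main retinoic acid producing enzyme of the embryo (ENSMUSG00000013584, chromosome 9, 71215789 to 71296243, plus strand). It was at 0.268, 0.775 and 1.17 FPKM in PF and at 3.88, 2.84 and 3.09 FPKM in PF4hLPS. In EtOH it was at 0.638, 0.399 and 0.853 FPKM, and in EtOH4hLPS at 1.78, 3.32 and 3.51 FPKM. All 6 LPS libraries were above all 6 saline libraries, with EtOH4hLPS library 1 the lowest of the 6. The group mean was 4.44 times as high with LPS in pair-fed mice and 4.56 times in ethanol-fed mice, with differences of 1.32 ± 0.24 and 1.23 ± 0.24. At a pseudocount of 0.1 they were 2.17 and 2.02.

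Aldh1a1 and Aldh1a7 were higher with ethanol than with pair-feeding in the saline groups, and neither gene was called in any comparison. After LPS in pair-fed mice they differed by 0.43 ± 0.26 and 0.41 ± 0.24. In ethanol-fed mice they differed by 0.05 ± 0.26 and -0.16 ± 0.24 after LPS. Aldh1a1 encodes RALDH1 (ENSMUSG00000053279, chromosome 19, 20492715 to 20643465, plus strand), and Aldh1a7 lies beside it on the opposite strand (ENSMUSG00000024747, 20692953 to 20727562) and encodes a close relative. Aldh1a1 was at 2.75, 2.66 and 2.70 FPKM in PF and at 4.47, 6.34 and 7.76 FPKM in EtOH. Aldh1a7 was at 5.00, 5.21 and 6.73 FPKM in PF and at 8.02, 11.8 and 14.4 FPKM in EtOH. In both genes every EtOH library was above every PF library. Under LPS the groups of the 2 diets overlapped in both genes. Aldh1a1 was at 5.99, 2.52 and 4.06 FPKM in PF4hLPS and at 7.03, 7.49 and 4.70 FPKM in EtOH4hLPS. Aldh1a7 was at 9.67, 5.43 and 8.89 FPKM in PF4hLPS and at 9.65, 11.4 and 8.64 FPKM in EtOH4hLPS. PF4hLPS library 2, the shallowest of the 12, was the lowest LPS library for both genes.

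The levels of Aldh1a1 and Aldh1a7 cannot be fully separated, because their transcripts share long identical runs. Their coding sequences, both 1506 bases long, were identical at 91.6% of positions, and 10.4% of the 50-base windows of Aldh1a7 occurred letter for letter in a transcript of Aldh1a1. The other pairs of Aldh1a genes were 67.4 to 68.8% identical and shared no such window (0%). The stretch around the longest shared run, coding bases 737 to 876 counted from the start codon in the GENCODE M21 transcripts, is shown because a fragment from its 100 identical bases fits both genes, and capitals mark the 3 positions that differ:
Aldh1a1: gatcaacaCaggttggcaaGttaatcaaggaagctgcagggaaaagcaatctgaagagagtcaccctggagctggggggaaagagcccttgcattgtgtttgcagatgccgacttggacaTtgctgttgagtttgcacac
Aldh1a7: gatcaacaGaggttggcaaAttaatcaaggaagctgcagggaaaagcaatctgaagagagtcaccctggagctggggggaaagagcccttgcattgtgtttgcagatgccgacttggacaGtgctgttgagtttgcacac
How the deposited values assign such fragments is not given in the sources used here. The ratio of Aldh1a7 to Aldh1a1 stayed between 1.37 and 2.49 in the 12 libraries. Across the 12 libraries the 2 genes had a Pearson r of 0.94 on the log2(FPKM + 1) scale, a description in which shared fragments take part to an unknown degree. Summed over both genes, the difference of ethanol without LPS was 0.96, against 0.93 ± 0.26 for Aldh1a1 and 0.88 ± 0.24 for Aldh1a7 alone.

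Aldh1a3, which encodes RALDH3, stayed low and was not tested (ENSMUSG00000015134, chromosome 7, 66390890 to 66427517, minus strand). Its level was 0.286, 0.747 and 0.402 FPKM in PF and 0.758, 0.818 and 1.38 FPKM in PF4hLPS. It was 0.794, 0.713 and 0.175 FPKM in EtOH and 0.828, 0.858 and 1.27 FPKM in EtOH4hLPS. In each diet the 3 LPS libraries were above the 3 saline libraries, by as little as 0.747 against 0.758 FPKM in pair-fed mice.

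Together the 4 Aldh1a genes held 8.30 to 11 FPKM in PF, 11.6 to 20.3 in PF4hLPS, 13.9 to 23.2 in EtOH and 18.1 to 23.1 in EtOH4hLPS. This is a sum of RNA levels, and whether each of the 4 enzymes makes retinoic acid was not measured here. Aldh1a7 made up 46.8 to 62.1% of that sum and Aldh1a1 21.7 to 36.5%. The share of Aldh1a2 was 2.07 to 10.6% in the 6 saline libraries and 9.22 to 24.5% in the 6 LPS libraries. Its lowest LPS share, in EtOH4hLPS library 1, was below its highest saline share, in PF library 3. The stacked plot shows both patterns, a taller column in all EtOH than in all PF libraries and a wider Aldh1a2 segment in most LPS libraries.

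**Figure D2:**
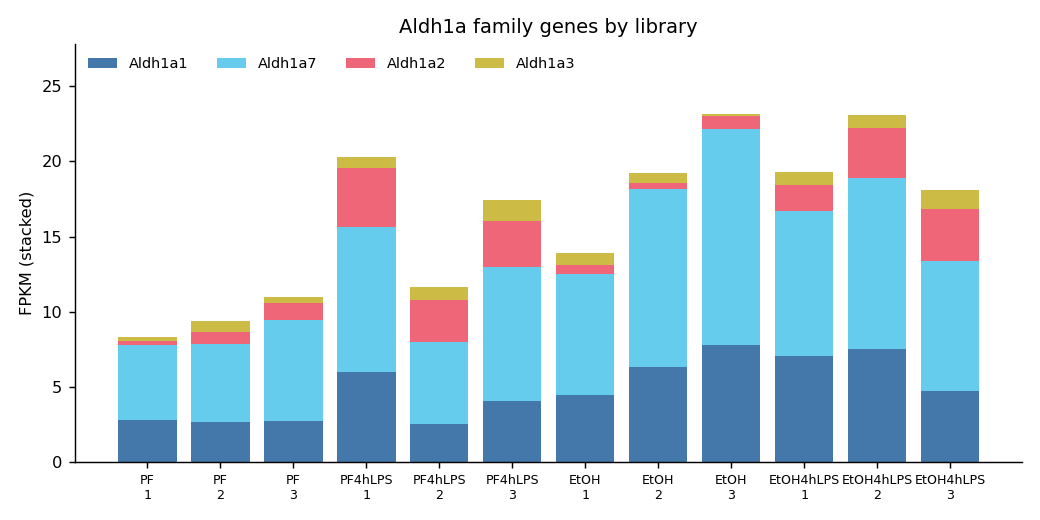
FPKM of the 4 Aldh1a genes (vertical axis, stacked) in each of the 12 libraries (horizontal axis, group and replicate number). The sums run from 8.30 FPKM in PF library 1 to 23.2 FPKM in EtOH library 3, and Aldh1a2 holds 2.07 to 10.6% of a column without LPS and 9.22 to 24.5% with LPS.

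Among the receptors, Rarb was lower after LPS in both diets. Rarb encodes the retinoic acid receptor beta (ENSMUSG00000017491, chromosome 14, 16430839 to 16819156, minus strand). It was at 2.19, 3.23 and 2.88 FPKM in PF and at 0.842, 1.36 and 0.890 FPKM in PF4hLPS. In EtOH it was at 4.51, 3.81 and 4.13 FPKM, and in EtOH4hLPS at 1.04, 1.28 and 1.28 FPKM. Every saline library was above every LPS library, and every EtOH library was above every PF library. The mean under LPS was 0.373 of the saline mean in pair-fed mice and 0.289 in ethanol-fed mice, with differences of -0.89 ± 0.16 and -1.23 ± 0.16. At a pseudocount of 0.1 the pair-fed difference was -1.35. The gene's annotated span overlaps Top2b on the opposite strand, which reached 66.07 FPKM, and the strand setting of the counting is not given in the sources used here.

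Rarb is itself a textbook target of retinoic acid, through a pair of half-sites ahead of its internal start site. The promoter windows of RefSeq, 250 bases before to 50 after each start (GRCm38.p6), were searched on both strands for direct repeats of the half-sites AGGTCA or AGTTCA, or else GGGTCA or GGTTCA, with 1, 2 or 5 bases between them. A repeat with 5 bases between was found in 0.0974% of 32851 promoters, one with 1 base in 0.222%, one with 2 bases in 0.268%, and any of them in 0.588%. Of the 9 genes, 8 had a promoter in that table, 14 promoters in all, and 1 of the 14, that of Rarb, held a match. Of 89 other genes of the retinoid and ethanol oxidation lists described below, 69 had 90 promoters, and 2 of those held a match, Cyp26a1 with 5 bases between and Bco1 with 1. The 2 matches with 5 bases between are shown with their flanks because both genes are known for induction by retinoic acid, and capitals mark the half-sites, read on the opposite strand for Cyp26a1:
Rarb: cgggaagGGTTCAccgaaAGTTCActcgca
Cyp26a1: ttaaagaTGAACTttgggTGAACTaatttg
The Rarb bases are chr14:16575507-16575536 on the minus strand and the Cyp26a1 bases chr19:37697769-37697798 on the plus strand. The match lies 53 to 37 bases before the start site of Rarb (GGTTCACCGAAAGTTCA) and 32 to 16 bases before that of Cyp26a1. In GENCODE M21 the Rarb site also falls in the first exon of longer Rarb transcripts. The promoter of Cyp26b1 held no such repeat. The bases upstream of its first annotated exon, chr6:84593909-84594060 on the minus strand, held no single half-site of this kind either and are shown for comparison:
Cyp26b1: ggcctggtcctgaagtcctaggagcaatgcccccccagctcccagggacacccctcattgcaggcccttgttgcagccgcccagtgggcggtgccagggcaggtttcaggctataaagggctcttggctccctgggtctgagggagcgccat
A match is a run of letters and not a bound site, and the missing match says only that these letters are not in this window.

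Rara and Rxra differed less and their groups mostly overlapped. Rara, the receptor alpha gene (ENSMUSG00000037992, chromosome 11, 98927818 to 98974942), was at 2.2, 4.62 and 3.48 FPKM in PF and at 2.44, 0.745 and 1.59 FPKM in PF4hLPS. It was at 3.51, 3.13 and 2.17 FPKM in EtOH and at 2.75, 1.35 and 1.09 FPKM in EtOH4hLPS. In both diets 1 LPS library lay within the saline range. The differences after LPS were -0.79 ± 0.31 with the control diet and -0.56 ± 0.31 with ethanol, neither of them called. Rara was called in pair-fed mice with libraries scaled to the same total FPKM, at -1.09, and without PF4hLPS library 1, at -1.02. A small nuclear RNA gene inside Rara on the same strand, Gm22061, reached 25.52 FPKM.

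Rxra encodes the partner of the RAR receptors and of many other nuclear receptors (ENSMUSG00000015846, chromosome 2, 27676440 to 27762957). It was at 7.66, 9.85 and 16.2 FPKM in PF and at 10.3, 7.10 and 5.79 FPKM in PF4hLPS. It was at 11.6, 10.3 and 10.2 FPKM in EtOH and at 7.51, 9.0 and 8.96 FPKM in EtOH4hLPS. The groups of pair-fed mice overlapped, those of ethanol-fed mice did not, and the differences of -0.46 ± 0.25 and -0.31 ± 0.25 were not called. Rara, Rxra and Cyp26b1 have the highest GC content of the 9 genes, at 59.2, 57.0 and 56.7%. GC-rich genes stood low in PF4hLPS library 2, EtOH4hLPS library 1 and the saline PF library 1. PF library 1 was the lowest PF library for all of these genes, and PF4hLPS library 2 the lowest of its group for Rara and Cyp26b1. In EtOH4hLPS library 1 Rxra was the lowest of its group, but Rara and Cyp26b1 had their highest LPS values, 2.75 and 0.101 FPKM. What part GC content has in their values was not tested.

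Rbp4, whose protein carries retinol in blood and is made mainly in liver, was close to absent from the cortex (ENSMUSG00000024990, chromosome 19, 38116629 to 38125281). It was at 0.0379, 0.220 and 0 FPKM in PF, at 0.364, 0.221 and 0 FPKM in PF4hLPS and at 0.117, 0.226 and 0 FPKM in EtOH. In EtOH4hLPS it was listed at 0 in all 3 libraries. A listed 0 can be a failed estimate as well as no fragment, so no fold is given.

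In the fit over all genes, LPS in pair-fed mice called 1 of the 7 tested genes of the set higher, Aldh1a2, and 2 lower, Cyp26b1 and Rarb, where 18.2% of all tested genes were called. LPS in ethanol-fed mice called the same 3 genes in the same directions, against 17.1% of all tested genes. Libraries of the 2 groups did not overlap in 3 of the 7 genes in pair-fed mice and in 4 of the 7 in ethanol-fed mice, Rxra being the fourth. Groups did not overlap in 34.2% and 33.6% of all tested genes. The genes were picked with these values known, so the counts only describe them. Aldh1a2 reached 1 FPKM in every LPS library, but among the saline libraries only in PF library 3. Cyp26b1 reached 1 FPKM in no LPS library. Both thus passed the expression filter only through the groups where they were high. The median difference of the 7 was -0.46 in pair-fed mice and -0.31 in ethanol-fed ones, against -0.0065 and 0.0177 over all tested genes. Each of the 6 calls held when any 1 of the libraries was left out, but Cyp26b1 in pair-fed mice was not called when genes had to reach 5 FPKM in 3 libraries. With every library brought to the same total FPKM, the all-gene median was -0.41 in pair-fed mice and -0.26 in ethanol-fed mice. The calls over all genes then went from 1589 higher and 972 lower to 858 and 2565 in pair-fed mice, and from 1504 and 902 to 974 and 1772 in ethanol-fed mice, and the 3 genes kept their directions and calls.

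**Figure D3:**
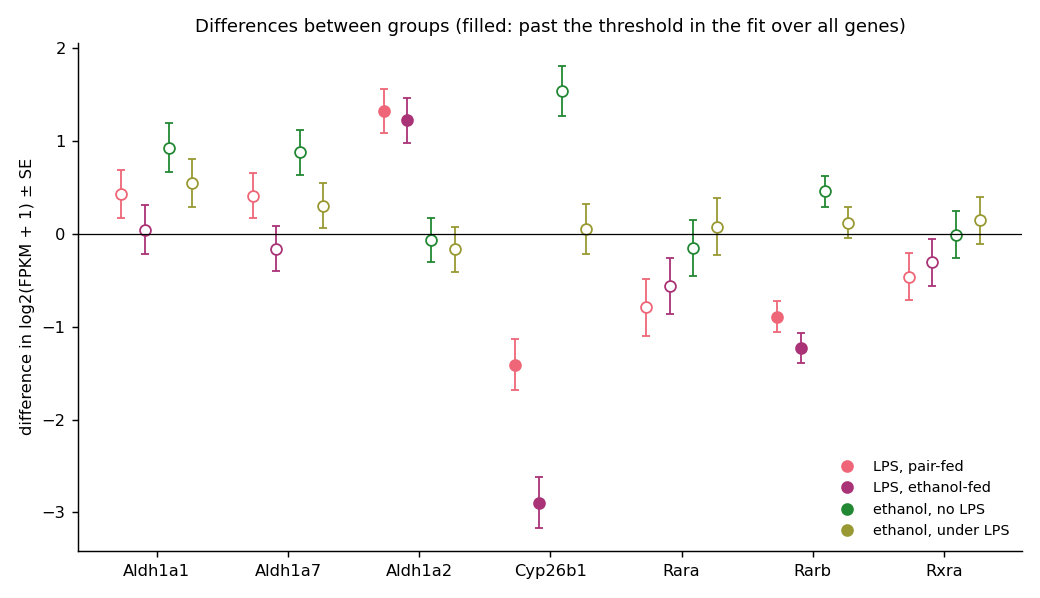
Differences in log2(FPKM + 1) ± SE (vertical axis) for the 7 tested genes (horizontal axis) in 4 comparisons, filled where the fit over all genes called the difference. Aldh1a2 lies above 0 and Cyp26b1 and Rarb lie below 0 after LPS in both diets, and the ethanol differences are open throughout.

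Ethanol without LPS went with higher levels of 4 of the 7 tested genes, none of them called. All 3 EtOH libraries were above all 3 PF libraries for Cyp26b1, Aldh1a1, Aldh1a7 and Rarb, 4 of 7 genes where groups did not overlap in 12.6% of all tested genes. The EtOH mean was 3.66 times the PF mean for Cyp26b1, 2.29 times for Aldh1a1, 2.02 times for Aldh1a7 and 1.5 times for Rarb. On the log2 scale the differences were 1.54 ± 0.27, 0.93 ± 0.26, 0.88 ± 0.24 and 0.46 ± 0.16. Aldh1a2, Rara and Rxra had differences of -0.07 ± 0.24, -0.15 ± 0.31 and -0.01 ± 0.25. Of the 7 genes 0 were called, in a comparison that called 0.0284% of all tested genes, 4 genes, while 521 genes had an unadjusted p under 0.05. Without PF library 2, which held the highest PF value of Cyp26b1, that gene was called with a difference of 1.89.

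Under LPS the diet groups overlapped in all 7 tested genes and 0 were called, where 10.9% of all tested genes did not overlap and 0.0992% were called. The differences of Aldh1a1 and Aldh1a7 were 0.55 ± 0.26 and 0.30 ± 0.24, and those of the other 5 genes lay between -0.17 and 0.15. Averaged over saline and LPS, the ethanol difference was 0.80 ± 0.19 for Cyp26b1, 0.74 ± 0.19 for Aldh1a1, 0.59 ± 0.17 for Aldh1a7 and 0.29 ± 0.12 for Rarb. None of the 7 was called, in a comparison that called 0.319% of all tested genes, and Cyp26b1 was called at 0.975 without PF library 2. The diet by LPS interaction was -1.49 ± 0.38 for Cyp26b1 and between -0.57 and 0.23 for the other 6 tested genes, with 0 called where 0.0284% of all tested genes were. Both LPS groups of Cyp26b1 lay near the floor, at an estimated 1.2 to 8.4 fragments. Its interaction is thus close to its ethanol difference without LPS, 1.54, with the sign reversed. It does not show a larger LPS response with ethanol. These comparisons share libraries with each other, so their values for a gene are not independent.

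RNA of cell type markers differed with LPS as well, and in a whole cortex sample fewer cells of a type cannot be told apart from less RNA per cell. The 8 endothelial markers summed to 108 to 138 FPKM in PF, 44.9 to 54.1 in PF4hLPS, 120 to 143 in EtOH and 54.6 to 69.5 in EtOH4hLPS, with 6 of 8 called lower and 1 higher in each diet. The 8 did not move together: in pair-fed mice Tek differed by -2.55 ± 0.16 (limma adjusted p = 3.09e-07), Cdh5 by 1.09 ± 0.23 (adjusted p = 0.00651) and Flt1 by 0.03 ± 0.16 (adjusted p = 0.933). The 6 neutrophil markers summed to 3.35 to 5.59 FPKM without LPS and 167 to 419 FPKM with it, 3 of the 4 tested being called higher in each diet. Of the 8 collecting duct markers 4 were called lower after LPS with the control diet and 3 with ethanol, and of 8 proximal tubule markers 1 and 0. Of 6 podocyte markers 1 and 0 were called lower, and of 6 thick ascending limb and distal tubule markers 1 and 1. Of 8 fibroblast, mesangium and pericyte markers 1 was called higher and 1 lower in each diet. Over all tested genes 18.2% were called after LPS in pair-fed mice and 17.1% in ethanol-fed mice. Of the 7 macrophage markers 6 were tested, and 0 of these were called in either diet. The untested marker, Cx3cr1, was under the expression filter. Its means were 0.976 FPKM in PF and 0.0418 in PF4hLPS, and 0.804 FPKM in EtOH and 0.0216 in EtOH4hLPS. Its LPS libraries were below its saline libraries in both diets. The part of these marker differences in the values of Cyp26b1, Rarb and Aldh1a2 was not tested.

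The genes most like each member over the 12 libraries were sought among 8208 or 8209 tested protein-coding genes with a group mean of at least 5 FPKM, by the Pearson r of log2(FPKM + 1) values. The number is a description over libraries that share the LPS split, and carries no p. Ptpru, a receptor tyrosine phosphatase gene, stood first for both Cyp26b1 (r = 0.953) and Rarb (r = 0.975), with means of 5.70, 0.646, 11 and 0.582 FPKM in PF, PF4hLPS, EtOH and EtOH4hLPS. Rarb and Cyp26b1 had an r of 0.965 with each other. Bsnd, a chloride channel subunit gene of the distal nephron, Dstyk, Plekhg3 and St6gal1 came next for Cyp26b1, at r of 0.920 to 0.908. Clu, the clusterin gene, and the TNF receptor gene Tnfrsf1b were the closest to Aldh1a2, at r of 0.985 and 0.972, and Clu had means of 54.0 and 320 FPKM in PF and PF4hLPS. Hao2, a peroxisomal oxidase gene, was the closest to Aldh1a1 after Aldh1a7, at r of 0.876, and Prr13 the closest to Aldh1a7 after Aldh1a1, at 0.878. Rara was closest to Ldb1 (0.911) and Cebpa (0.895), and Rxra to Lrrc24 (0.933) and Ap3d1 (0.919).

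Beside the set, 89 other genes of retinoid uptake, metabolism and response and of ethanol oxidation were followed, of which 61 were tested. After LPS in pair-fed mice 2 were called higher and 6 lower, 13.1% of the 61 against 18.2% of all tested genes. In ethanol-fed mice 5 were called higher and 4 lower, 14.8% against 17.1%. These shares do not exceed those of all tested genes. Among the 56 tested genes left without those that stand only in the ethanol oxidation list, 8 were called in each diet. The median difference of the 61 was -0.13 with the control diet and 0.07 with ethanol, against -0.0065 and 0.0177 over all tested genes. Of the 17 calls, 11 were lost when no filter on low values was applied and 9 when only the 2 groups compared were fitted. The list was drawn up with earlier results of these libraries known, and it is described here by its counts. The plot of the pathway lists shows the called genes by name.

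**Figure D4:**
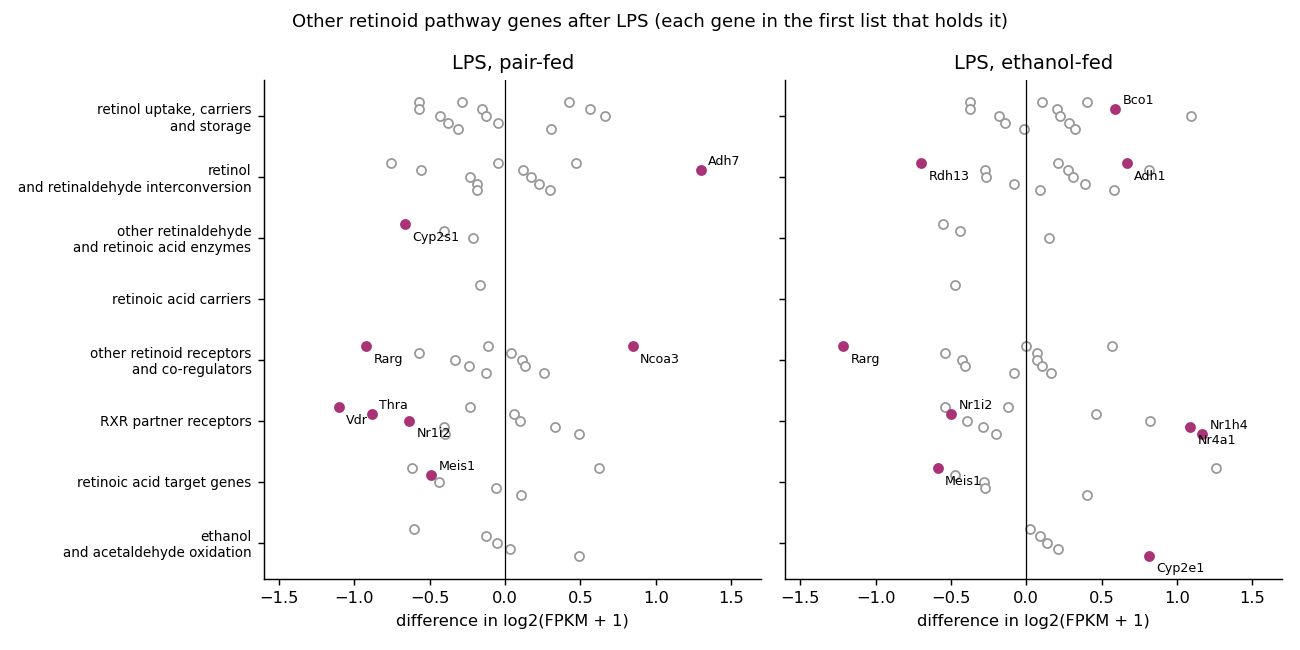
Differences in log2(FPKM + 1) after LPS (horizontal axes) of the tested genes of 8 retinoid and ethanol oxidation lists (rows, with points spread vertically for legibility), in pair-fed mice (left) and ethanol-fed mice (right). Filled, named points are the 8 and 9 genes called, and Rarg, Meis1 and Nr1i2 are filled on the left of 0 in both panels.

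Of the 13 tested genes of retinol uptake, carriers and storage, 0 were called after LPS in pair-fed mice and 1 in ethanol-fed mice. The shares called among all tested genes were 18.2% and 17.1%. Lrp2, which encodes megalin, was at 542 to 652 FPKM in PF and 306 to 529 FPKM in PF4hLPS (difference -0.43 ± 0.23; adjusted p = 0.239). Its partner Cubn differed by -0.13 ± 0.22 (adjusted p = 0.733). Bco1, which cleaves beta-carotene into retinaldehyde, was at 0.915, 0.616 and 1.06 FPKM in EtOH and 1.24, 1.99 and 2.25 FPKM in EtOH4hLPS, and rose by 0.59 ± 0.17 (limma adjusted p = 0.0312). That call was lost with equal total FPKM (adjusted p = 0.154) and in 4 of the 6 fits that left out a library, without EtOH library 1 or 2 or EtOH4hLPS library 2 or 3 (adjusted p up to 0.13).

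Retinol dehydrogenation is the step before the Aldh1a enzymes. Adh1, which oxidises both retinol and ethanol (chromosome 3, 138260991 to 138290698), was at 252, 254 and 301 FPKM in PF and 172, 177 and 149 FPKM in EtOH. With LPS it was at 320, 405 and 399 FPKM in PF4hLPS and 254, 234 and 308 FPKM in EtOH4hLPS. All ethanol libraries were below all pair-fed libraries of the same injection, without a call (difference -0.69 ± 0.18 without LPS, limma adjusted p = 0.712, and -0.50 ± 0.18 with LPS, adjusted p = 0.352). LPS raised Adh1 in ethanol-fed mice by 0.67 ± 0.18 (adjusted p = 0.0257), a call lost with quantile normalization at 0.25 (adjusted p = 0.4) and with equal total FPKM at 0.33 (adjusted p = 0.292). It was also lost without EtOH library 1, 2 or 3 or EtOH4hLPS library 3 (adjusted p up to 0.109).

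Adh7, another retinol-oxidising alcohol dehydrogenase, was at 3.36, 0.992 and 0.967 FPKM in PF and at 5.07, 7.95 and 3.67 FPKM in PF4hLPS. It rose after LPS in pair-fed mice by 1.30 ± 0.34 (limma adjusted p = 0.0214), a call lost without PF library 2, PF library 3 or PF4hLPS library 2 (adjusted p up to 0.094). Rdh13, a retinol dehydrogenase family member, was at 4.67, 4.23 and 4.15 FPKM in EtOH and 2.25, 1.86 and 2.86 FPKM in EtOH4hLPS, and was called lower by a narrow margin (difference -0.70 ± 0.22; adjusted p = 0.0451). The call of Rdh13 was lost in all 6 fits that left out a library (adjusted p 0.0521 to 0.157), and with a pseudocount of 0.1 (adjusted p = 0.051). Of the 12 tested genes of this step 1 was called after LPS in pair-fed mice, Adh7, and 2 in ethanol-fed mice, Adh1 and Rdh13. Among all tested genes 18.2% and 17.1% were called in these comparisons. The abundant Dhrs4 and Adh5, at 60.8 to 125 and 136 to 197 FPKM, were not called, and neither was Dhrs3, the retinaldehyde reductase (differences after LPS -0.19 ± 0.23 and -0.08 ± 0.23).

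Cyp2e1, the microsomal ethanol oxidase, ran parallel to Adh1. It was at 991, 1040 and 1260 FPKM in PF, 1410, 1770 and 1420 FPKM in PF4hLPS, 667, 529 and 797 FPKM in EtOH and 1200, 1030 and 1230 FPKM in EtOH4hLPS. The EtOH libraries were all below the PF libraries, with a difference of -0.73 ± 0.22 that was not called (limma adjusted p = 0.95). After LPS it rose in ethanol-fed mice by 0.81 ± 0.22 (adjusted p = 0.0221), a call lost with quantile normalization at 0.35 (adjusted p = 0.355) and with equal total FPKM at 0.48 (adjusted p = 0.207). Leaving out EtOH library 1 or 2 or EtOH4hLPS library 1 or 3 ended it as well (adjusted p up to 0.0979). In pair-fed mice the difference was 0.49 ± 0.22 (adjusted p = 0.147).

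Among the other receptors, Rarg, the receptor gamma gene (chromosome 15, 102234938 to 102257517), was lower after LPS in both diets. It was at 1.97, 2.77 and 1.81 FPKM in PF and 0.506, 1.10 and 0.469 FPKM in PF4hLPS. In EtOH it was at 2.67, 4.49 and 1.80 FPKM, and in EtOH4hLPS at 0.323, 0.952 and 0.747 FPKM. No LPS library reached the lowest saline library of its diet, and Rarg fell by 0.92 ± 0.26 in pair-fed mice (limma adjusted p = 0.0292) and by 1.22 ± 0.26 in ethanol-fed ones (adjusted p = 0.00663). The pair-fed call was lost in 5 of the 6 fits that left out a library, all but that without PF4hLPS library 2, with the adjusted p up to 0.12. The coactivator gene Ncoa3 rose in pair-fed mice by 0.85 ± 0.19, from 19.5 to 21.9 FPKM in PF to 31.3 to 49.0 FPKM in PF4hLPS (adjusted p = 0.00866), and was not called with equal total FPKM (0.36, adjusted p = 0.204) or with quantile normalization (0.58, adjusted p = 0.0529). The abundant corepressor gene Ncor1 and coactivator gene Crebbp were not called in either diet.

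Several receptors that pair with RXR were called after LPS, in different directions. Nr1i2, the pregnane X receptor gene, was called lower in both diets, from 0.973 to 1.22 FPKM in PF to 0.205 to 0.463 in PF4hLPS (difference -0.64 ± 0.14; limma adjusted p = 0.00944) and from 1.52 to 1.63 FPKM in EtOH to 0.683 to 0.987 in EtOH4hLPS (-0.50 ± 0.14; adjusted p = 0.0337). The ethanol-fed call of Nr1i2 was lost in 5 of the 6 fits that left out a library, all but that without EtOH4hLPS library 2 (adjusted p up to 0.124), and with quantile normalization (adjusted p = 0.0718) or a pseudocount of 0.1 (adjusted p = 0.0978). The pair-fed call held in all 6 such fits and was lost with only the 2 groups fitted (adjusted p = 0.0524). Vdr, the vitamin D receptor gene, was at 30.9, 43.2 and 38.7 FPKM in PF and 23.6, 19.5 and 10.2 FPKM in PF4hLPS, and was called lower (-1.10 ± 0.31; adjusted p = 0.0273), a call lost without PF library 2, PF library 3 or PF4hLPS library 3 (adjusted p up to 0.103). In ethanol-fed mice Vdr was at 42.4, 30.4 and 42.4 FPKM without and 67.6, 58.4 and 37.0 FPKM with LPS (0.46 ± 0.31; adjusted p = 0.369). The interaction of Vdr, 1.56 ± 0.43, was not called (adjusted p = 0.86), so its responses are not shown to differ between diets.

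Thra, a thyroid hormone receptor gene, fell in pair-fed mice by 0.88 ± 0.27 (limma adjusted p = 0.0419), a call lost in 5 of 6 fits without a library, all but that without PF4hLPS library 1 (adjusted p up to 0.13). Nr1h4, the bile acid receptor FXR, was at 63.3, 48.4 and 52.5 FPKM in EtOH and 107, 146 and 120 FPKM in EtOH4hLPS, and rose by 1.17 ± 0.22 (adjusted p = 0.00261). With equal total FPKM its adjusted p was 0.0545. Nr4a1, an immediate early orphan receptor, rose in ethanol-fed mice by 1.09 ± 0.20, to between 2.32 and 2.66 FPKM (adjusted p = 0.00294). Ppara, which controls fatty acid oxidation genes, was not called there (0.82 ± 0.27; adjusted p = 0.059), and neither was Nr1h3, the liver X receptor alpha gene (-0.29 ± 0.33; adjusted p = 0.635).

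Of the 10 tested genes of the retinoic acid target list 2 were called lower in each diet, Rarg and Meis1, and 0 higher, where 18.2% and 17.1% of all tested genes were called. Meis1, a homeobox gene, was at 2.1 to 2.42 FPKM in PF and 1.07 to 1.5 in PF4hLPS (difference -0.49 ± 0.14; limma adjusted p = 0.0301). In EtOH it was at 1.76 to 2.2 FPKM and in EtOH4hLPS at 0.871 to 1.05 (-0.59 ± 0.14; adjusted p = 0.0118). The pair-fed call of Meis1 was lost in 5 of the 6 fits that left out a library, all but that without PF4hLPS library 2 (adjusted p up to 0.0918), and with quantile normalization (adjusted p = 0.0703), and the ethanol-fed call was lost without EtOH library 2 (adjusted p = 0.0533). The median of the list was -0.12 and -0.21 in the 2 diets. Tgm2, the tissue transglutaminase gene and a classical target, had differences of 0.62 ± 0.42 and 1.26 ± 0.42, neither called (adjusted p = 0.347 and 0.0631).

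The ethanol comparisons called 0 of the 61 pathway genes without LPS and 0 under LPS, and 1 averaged over both, where 0.0284%, 0.0992% and 0.319% of all tested genes were called. That gene was Ces1d, a carboxylesterase that hydrolyses retinyl esters, at 219 ± 9.59 and 293 ± 21.8 FPKM in PF and EtOH and at 171 ± 39.1 and 388 ± 36.0 FPKM in PF4hLPS and EtOH4hLPS (SD, n = 3). Its averaged difference was 0.81 ± 0.14 (limma adjusted p = 0.0396), with the ethanol libraries above the pair-fed libraries in both injection states. The call was lost in 9 of 12 fits that left out a library, with the adjusted p between 0.0384 and 0.125, namely without any 1 of the PF, EtOH or EtOH4hLPS libraries. The interaction called 0 of the 61, and 0.0284% of all tested genes.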

How the data were processed

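Kidney cortex RNA was sequenced in 12 libraries, 3 in each of 4 groups. The authors deposited FPKM values for 47719 Ensembl genes, and FPKM are not counts, so no count model was run. The submitters' processing notes name TopHat2 2.0.4, Cufflinks 2.2.1 with Cuffdiff 2.1.1 and Cuffnorm, the quality tool FastQC 0.10.1, and build mm10, without their order. The sources used here do not give the strand setting, the annotation release or the treatment of fragments that fit several genes. Libraries were made from total RNA with a stranded kit that removes ribosomal RNA, per the labels.

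Gene symbols and coordinates came from GENCODE M21 (GRCm38), which matched 47305 of the identifiers. Groups were fitted in limma 3.58.1 (R 4.3.3) to log2(FPKM + 1), with 1 mean per group over all 12 libraries and moderated variances with a trend and a robust prior. Tested genes reached 1 FPKM in 3 libraries or more, and p-values were two-sided and adjusted by the Benjamini-Hochberg method over 14109 genes. Every adjusted p in the text is from this fit. Depth was estimated from the modal step between low values times the exonic length. This is a description and covers no counting error. With 3 against 3 libraries an exact permutation test cannot reach the threshold, so none is given.

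The 9 genes, the 89 pathway genes and the marker lists were chosen with earlier results of these data known. Named pathway genes are those called in at least 1 comparison with a group mean of at least 1 FPKM, and up to 2 abundant uncalled genes per list. For likeness, the 5 (Cyp26b1) or 2 (other genes) highest correlations are named. Alternatives were other scalings, pseudocounts, filters, variance settings and sets of libraries, a replicate block and the sum of Aldh1a1 and Aldh1a7. Promoter windows came from RefSeq (GRCm38.p6). Coding sequences were the longest open reading frames of GENCODE M21 transcripts.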

Additional observations from a re-analysis of the deposited data

Results flagged for a closer look

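Ces1d, the retinyl ester hydrolase named among the pathway genes, had values on opposite sides of the saline libraries after LPS in the 2 diets, without a call in either. All 3 PF4hLPS libraries (184, 127 and 202 FPKM) were below all 3 PF libraries (219, 210 and 229 FPKM), and all 3 EtOH4hLPS libraries (396, 349 and 420 FPKM) were above all 3 EtOH libraries (312, 269 and 297 FPKM). The differences were -0.38 ± 0.20 and 0.41 ± 0.20 (SE) on the log2(FPKM + 1) scale. The difference between them, 0.784 ± 0.276, did not pass the threshold (limma interaction, adjusted p = 0.988), so the responses are not shown to differ.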

How the results depend on the processing

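Rbp4 and Aldh1a3 were not tested and are left out of the counts that follow. Of 688 values of the 7 tested genes under an alternative, 675 were counted as kept. For differences called in the main fit this means only that the call stayed, however far the value moved. For uncalled ones it means no call and a move under the SD within groups. Of the rest, 8 uncalled values moved by more, 4 gained a call and 1 called value lost it. No called value changed sign. Cyp26b1 after LPS in ethanol-fed mice stayed called but ran from -5.331 to -2.723. Aldh1a7, which was not called, went from 0.41 to -0.015 after LPS in pair-fed mice with equal total FPKM. The count of pathway genes called after LPS in pair-fed mice was 8, and 18 with equal total FPKM, 3 without a filter, 3 with a filter of 5 FPKM, 2 with only the 2 groups fitted, and 2 to 8 when 1 library was left out, with 5 without PF library 1, 2 without PF library 2, 2 without PF library 3 and 4 without PF4hLPS library 3. After LPS in ethanol-fed mice it was 9, and 5 without a filter, 3 with a filter of 5 FPKM and 3 to 8 when 1 library was left out, with 4 without EtOH library 1, 3 without EtOH library 2 and 4 without EtOH4hLPS library 3. For ethanol under LPS it was 0, and 1 with quantile normalization, 1 with median-ratio factors and 0 to 1 when 1 library was left out, the 1 being without PF4hLPS library 1. For ethanol averaged over LPS it was 1, and 0 with equal total FPKM, 0 without a filter and 0 to 1 when 1 library was left out. A fit with the replicate number as a replicate block gave 0 there and changed no other of these counts by over 1.5 times, though 3 of the 17 pathway calls after LPS were lost in it (Meis1 in pair-fed mice at an adjusted p of 0.0512, and Rdh13 and Nr1i2 in ethanol-fed mice at 0.0619 and 0.0621). Deviations from the group mean in same-numbered libraries of different groups had an r between -0.206 and 0.279. Differently numbered libraries were not set beside them, so this does not show whether the numbers pair the libraries. The causes of these shifts were not tested. Depth limits Cyp26b1, with an estimated 1.2 to 8.4 fragments in the LPS libraries, and Rbp4, with 0 to 8.4 in all 12.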
